A study of Mus musculus with 10 samples.

Results

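The eye field transcription factors described here are the 6 mouse genes Pax6, Rax, Six3, Six6, Lhx2 and Nr2e1, taken by name from 21631 protein-coding genes on chromosomes 1 to 19 and X. The rule is a list of names and uses no measured value, and the list was drawn up with earlier results of these data known. Each gene was described over its annotated body plus 50 kb either side, called its window below, in mm10 (GRCm38) coordinates. The windows were read in 8 deposited peak lists from mouse retina (strain C57BL/6), 4 from control tissue, labelled wild type, and 4 from tissue with a conditional knockout (cKO) of Casz1, a gene for a zinc finger transcription factor.

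For ATAC-seq, which finds DNA open to the Tn5 transposase, retinal explants were transfected with a plasmid for GFP alone (control, 2 libraries) or for GFP with Cre (Casz1 cKO, 2 libraries). They were cultured for 2 days, and 50000 living GFP-positive cells were sorted for each library. The labels give the age as postnatal day 2 without saying whether it is the age at transfection or at collection, and the sources used here do not describe the Casz1 allele that Cre recombined. The 2 ATAC experiments were run on different days, and which libraries shared a day is not given. ChIP-seq for the histone marks H3K27ac and H3K27me3 used retina at postnatal day 0 (P0), with 1 control and 1 cKO library for each mark. The cKO tissue was dissected from the peripheral retina by its fluorescence. The names inside the peak files call the control Cre-negative, and the part of the retina it came from and the Cre driver are not given. Nothing in the labels says that the libraries came from separate animals, so a spread between replicates may be technical, and the 2 input libraries were not analysed here. Peak lists hold no transcript level, and the loss of Casz1 was not checked here.

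The eye field is the region of the anterior neural plate from which both eyes form, and these 6 genes belong to the network of transcription factors that sets it apart from the rest of the forebrain. Their proteins go on working in retinal progenitor cells of the optic cup, and several persist in mature cells, such as Pax6 in amacrine and ganglion cells and Rax and Lhx2 in Müller glia. H3K27ac is a histone acetylation found at active promoters and enhancers. H3K27me3 is the methylation of the same lysine by Polycomb repressive complexes, and is found over repressed developmental genes.

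The peak lists differed in length within a genotype as well as between genotypes. The ATAC lists of control replicates 1 and 2 held 40435 and 110741 peaks that covered 11.8 and 61.0 Mb, and those of cKO replicates 1 and 2 held 93767 and 60824 peaks that covered 52.7 and 20.004 Mb. The control and cKO lists covered 55.4 and 51.6 Mb for H3K27ac, and 87.4 and 84.5 Mb for H3K27me3. A peak is present or absent here with no count behind it, so the depth of each library is unknown and no interval can be given for a single value. In bulk samples, a mark carried by fewer cells and less of the mark per cell cannot be told apart.

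The 250 bases before the annotated starts of 5 of the 6 genes were taken from RefSeq (GRCm38.p6), since these are the stretches at which the 2 histone marks set the members apart. Capitals mark CCAAT, or ATTGG where the same letters lie on the other strand. Each is written 5′ to 3′ on the strand of the gene and ends at the base before the start. The stretches are chr2:105668646-105668895 (plus strand) for the first start of Pax6, chr2:105682213-105682462 (plus strand) for its second start, chr17:85620584-85620833 (plus strand) for Six3, chr12:72939632-72939881 (plus strand) for Six6, chr2:38339031-38339280 (plus strand) for the first start of Lhx2 and chr10:42583591-42583840 (minus strand) for Nr2e1.
Pax6, first start: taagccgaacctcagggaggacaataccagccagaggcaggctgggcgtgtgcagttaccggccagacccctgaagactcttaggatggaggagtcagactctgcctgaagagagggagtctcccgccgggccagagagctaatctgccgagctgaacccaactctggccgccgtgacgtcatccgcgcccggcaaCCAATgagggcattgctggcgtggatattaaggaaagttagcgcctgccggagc
Pax6, second start: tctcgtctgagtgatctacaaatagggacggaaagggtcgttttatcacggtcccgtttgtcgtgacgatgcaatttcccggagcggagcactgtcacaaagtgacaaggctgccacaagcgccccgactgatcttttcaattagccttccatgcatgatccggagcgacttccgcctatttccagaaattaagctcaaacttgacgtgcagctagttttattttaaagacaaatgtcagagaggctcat
Six3: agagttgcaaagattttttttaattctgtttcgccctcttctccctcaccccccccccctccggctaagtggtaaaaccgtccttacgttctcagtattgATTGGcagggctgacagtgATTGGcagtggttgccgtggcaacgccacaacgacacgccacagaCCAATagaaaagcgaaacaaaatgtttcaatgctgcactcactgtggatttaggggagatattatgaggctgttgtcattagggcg
Six6: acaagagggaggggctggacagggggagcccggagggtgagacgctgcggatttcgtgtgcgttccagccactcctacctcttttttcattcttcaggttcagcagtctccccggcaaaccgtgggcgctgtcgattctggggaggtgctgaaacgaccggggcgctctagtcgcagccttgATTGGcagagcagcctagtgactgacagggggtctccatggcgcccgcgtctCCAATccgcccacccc
Lhx2, first start: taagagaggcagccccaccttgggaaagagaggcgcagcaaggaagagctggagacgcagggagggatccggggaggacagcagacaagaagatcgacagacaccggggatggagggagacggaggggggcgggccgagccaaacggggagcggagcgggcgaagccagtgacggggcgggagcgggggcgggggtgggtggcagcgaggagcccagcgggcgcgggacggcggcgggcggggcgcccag
Nr2e1: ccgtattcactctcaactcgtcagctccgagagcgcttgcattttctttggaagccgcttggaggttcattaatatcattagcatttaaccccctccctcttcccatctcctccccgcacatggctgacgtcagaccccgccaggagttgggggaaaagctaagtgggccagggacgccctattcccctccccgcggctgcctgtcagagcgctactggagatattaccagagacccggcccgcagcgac

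Six3 held 3 copies of CCAAT in either orientation, 150, 131 and 86 bases before its start, and Six6 held 2, at 68 and 16 bases. The first start of Pax6 held 1, at 54 bases, and the second start of Pax6, both starts of Lhx2 and the start of Nr2e1 held 0. Of 21045 promoters of the same length, 35.6% held these letters on either strand. Six3 and Six6 shared a run of 11 letters around one of these copies, ttgattggcag, which was found after the sequences were compared and stood in 10 of the 21045 promoters (0.0475%). Six3 and Six6 are among the 10 by construction, since the run was picked as the longest they share. How often other promoters share so long a run is not given. The homeodomain core TAATTA, which reads the same on both strands, was in 0 of the 7 members' stretches and in 4.24% of all promoters. The GC box, GGGCGG searched on both strands, occurred 4 times before the first start of Lhx2 and 1 time before that of Six6, and 43.1% of all promoters held it. The ratio of observed to expected CpG dinucleotides ran from 0.652 at the first start of Pax6 to 1.06 at its second start (95.5th percentile), against a median of 0.537 over all promoters. These letter matches are descriptions of the sequence.

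The bodies of all 6 genes were met by some of the widest H3K27ac peaks in the retina, though not all were filled by them. H3K27ac peaks covered 45.9% of the Lhx2 body in control and 39.7% in cKO, and 26.9% and 23.8% of the Nr2e1 body. In the control list the peak over Pax6 was 28338 bp wide and ranked 1 of 71605, and the peak over Six3 was 24408 bp wide and ranked 2. Those at Six6, Rax, Lhx2 and Nr2e1 were 13776, 11391, 11085 and 7371 bp wide and ranked 15, 30, 34 and 139. In the cKO list the same genes had widths of 27919 bp for Pax6 (rank 1 of 77357), 23669 bp for Six3 (rank 2), 13420 bp for Six6 (rank 12), 10776 bp for Rax (rank 25), 8961 bp for Lhx2 (rank 50) and 6419 bp for Nr2e1 (rank 139). Peaks at least as wide as the narrowest of the 6 made up 0.194% of the control list and 0.18% of the cKO list. They met the bodies of 0.518% and 0.532% of all genes. The 6 members are among these by construction, since the narrowest of their own peaks set the cutoff.

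The order of the members by H3K27ac width was therefore the same in both libraries. Each width was smaller in cKO than in control, by 356 bp at Six6 and by 2124 bp at Lhx2. The median peak width of the whole H3K27ac list was also smaller, at 400 bp in control and 325 bp in cKO. The share of other wide peaks that were narrower in cKO is not given, so this is not shown to be particular to the members. With 1 library per genotype these differences have no replicate check. The map of called peaks in the windows shows the acetylated blocks over the bodies of Pax6, Rax, Six3 and Six6, and pieces of H3K27me3 over the bodies of Pax6, Rax, Lhx2 and Nr2e1.

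**Figure D1:**
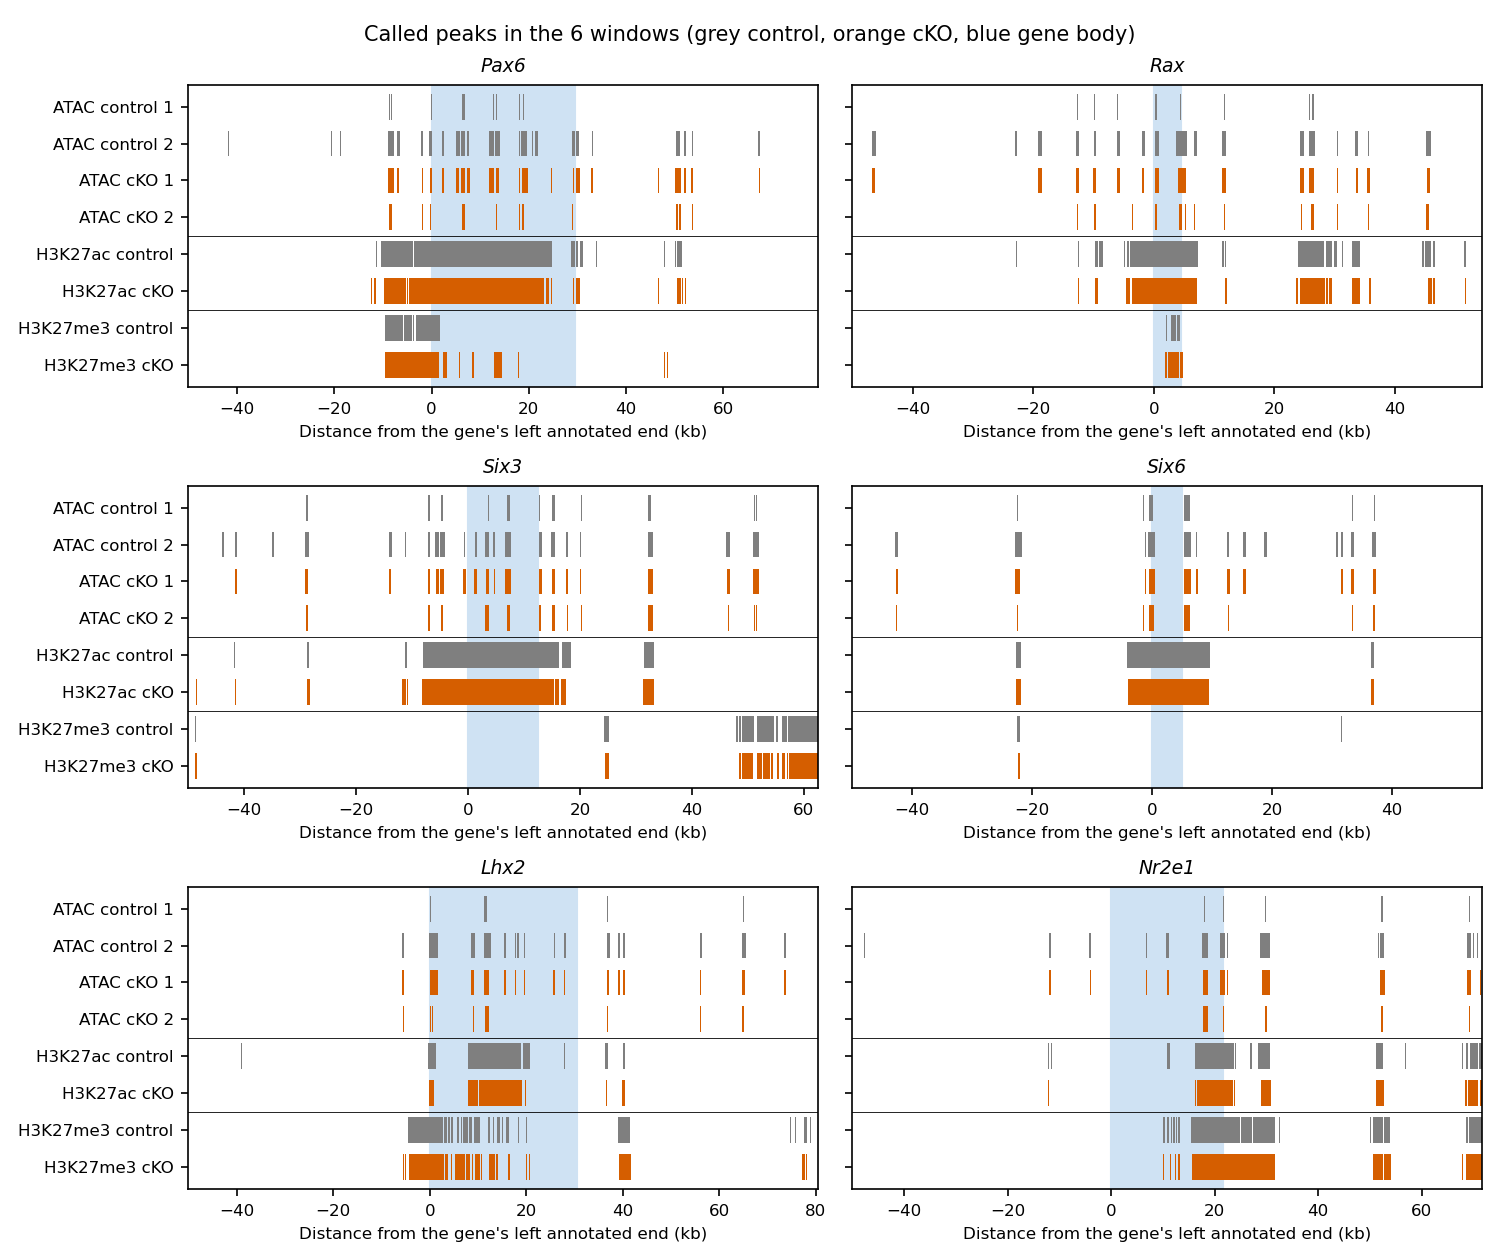
Called peaks in the window of each gene, drawn as bars against distance from the gene's left annotated end in kb, with 1 row per library (grey control, orange cKO) and the gene body shaded blue. H3K27ac fills the bodies of Rax, Six3 and Six6 in both genotypes, and no H3K27me3 bar lies on the bodies of Six3 or Six6.

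Pax6, a paired-domain and homeodomain factor required for eye formation, lies at chr2:105668896-105698410, and its window also takes in part of Elp4 and the long noncoding RNAs Pax6os1 (in part) and Paupar. H3K27ac peaks covered 38359 bp of the window in control and 36460 bp in cKO, and 86.4% and 82.1% of the gene body. H3K27me3 covered 10773 bp of the window in control and 14740 bp in cKO, 1.37-fold more. Within the body the difference was larger, 1705 bp in control and 4749 bp in cKO, 2.79-fold more, and this change stood at the 99.37th percentile of the 5348 gene bodies with at least 1000 covered bases in 1 genotype.

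The added H3K27me3 lay mostly in pieces of its own. Of the 4417 bp of the window found under H3K27me3 in cKO alone, 3496 bp lay in peaks that met no control peak and 921 bp beside control peaks, while 450 bp were found in control alone. Of the 9 cKO peaks in the Pax6 window 6 met no control peak, against 30.9% of the whole cKO list. The widest of the 6 was 1666 bp, at chr2:105681806-105683471, and covered the second annotated start of Pax6. Within 1 kb of that start H3K27me3 covered 0 bp in control and 1658 bp in cKO, while H3K27ac covered all 2001 bp in both. An ATAC region at chr2:105682027-105682934 spanned the same start and was called in all 4 ATAC lists, over 156 and 908 bp in control and 228 and 635 bp in cKO. At the first start the marks differed little: H3K27me3 covered 1882 bp in control and 2001 bp in cKO, and H3K27ac covered 2001 bp in both.

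Open chromatin over the Pax6 window covered 2321 and 13820 bp in the 2 control lists and 11675 and 4117 bp in the 2 cKO lists. The cKO values lay between the control values. Of 26 open regions in the window 8 were called in all 4 lists, and the one widest in the shortest list, 609 bp there, lay 7.73 kb before the gene over Paupar (chr2:105659848-105661164). It was fully covered by both histone marks in both genotypes.

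**Figure D2:**
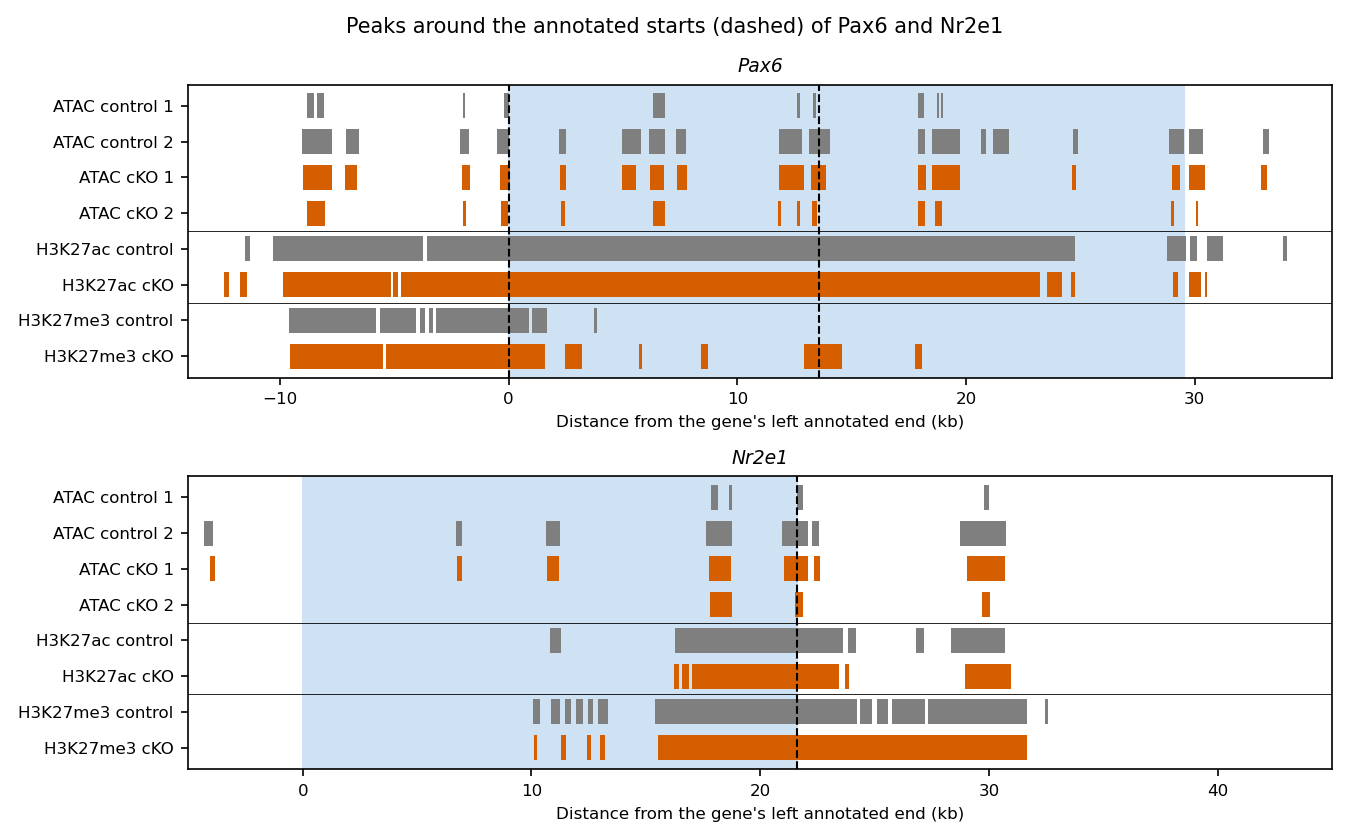
Called peaks around Pax6 and Nr2e1 against distance from the gene's left annotated end in kb, 1 row per library (grey control, orange cKO), with the body shaded and annotated starts dashed. The 1666 bp H3K27me3 peak at the second start of Pax6 is in the cKO row alone, and at Nr2e1 1 cKO peak of 16144 bp spans several control peaks.

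Rax, a paired-like homeodomain factor without which the optic vesicles do not form, lies at chr18:65934639-65939089. Its window also holds Cplx4, a complexin gene of retinal ribbon synapses, and parts of Grp and Lman1. H3K27ac covered 100% of the 4451 bp body in both genotypes, and 23184 bp of the window in control and 20379 bp in cKO. H3K27me3 covered 1626 bp in control and 2456 bp in cKO, 1.51-fold more, in 3 peaks in each. In control all of it lay in the body, and in cKO 2095 bp did, 1.29-fold more than in control. Each cKO peak met a control peak, the widest spanning the gap between a pair of them. The third shared 60 of its 477 bp with control. At the gene's right end H3K27me3 within 1 kb covered 807 bp in control and 1159 bp in cKO, and at its left end 0 bp in both. ATAC peaks covered 2046 and 10481 bp of the window in control and 8671 and 3823 bp in cKO, again with the cKO values between the control values. The open region widest in the shortest list lay inside Cplx4 at chr18:65960360-65961413.

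Six3, a sine oculis family homeodomain factor that represses Wnt signalling in the forebrain, lies at chr17:85613608-85626191, and its close relative Six2 lies 36.55 kb to the right, partly inside the window. H3K27ac covered 100% of the Six3 body in both genotypes and H3K27me3 covered 0 bp of it in both. In the window H3K27ac covered 28710 bp in control and 28953 bp in cKO. The 13373 bp of H3K27me3 in control and 12529 bp in cKO lay mostly at Six2, where a peak 27985 bp wide in control and 27698 bp wide in cKO began 44.6 kb from Six3 and ran past the window. Bases under both marks in the Six3 window were 0 in control and 229 in cKO.  ATAC peaks covered 3365 and 11498 bp in control and 9341 and 5126 bp in cKO, and 10 of 21 open regions were called in all 4 lists. A region at chr17:85645736-85646627, 19.6 kb to the right of Six3, was the widest in the shortest list.

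Six6, a factor of the same family that is needed for the growth of the retinal progenitor pool, lies at chr12:72939882-72944899. Its marks were of the same kind as those of Six3, with H3K27ac over 100% of the body and H3K27me3 over 0 bp of it in both genotypes. The window held 15187 bp of H3K27ac in control and 14591 bp in cKO. H3K27me3 in the window was 721 bp in control and 321 bp in cKO, below the minimum of 1000 bp at which a change was called, and lay at least 21.99 kb from the gene. ATAC covered 2118 and 7234 bp in control and 6184 and 2768 bp in cKO. The open region widest in the shortest list lay 0.338 kb to the right of the gene, at chr12:72945237-72946343, and covered 854 bp in that list, against 668 bp for the region at the start of Six6.

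Lhx2, a LIM homeodomain factor needed for the optic vesicle to become an optic cup and later in Müller glia, lies at chr2:38339271-38369737, and no other protein-coding gene lies in its window. In the body 53.3% of the H3K27me3 bases in control and 43.0% in cKO also lay under H3K27ac. The balance of the marks differed between its starts. The first start was covered by H3K27me3 over all 2001 bp within 1 kb in both genotypes and by H3K27ac over 1345 bp in control and 1061 bp in cKO. The second start, 12.027 kb further along the gene, was covered by H3K27ac over 2001 bp in both, and by H3K27me3 over 496 bp in control and 782 bp in cKO. H3K27ac in the window was 15488 bp in control and 13120 bp in cKO, and H3K27me3 was 19133 and 18711 bp. Although these H3K27me3 totals were close, the bases differed: 4794 bp were in control alone and 4372 bp in cKO alone. ATAC covered 1214 and 9800 bp in control and 7324 and 2421 bp in cKO, and the region at the second start (chr2:38350509-38352004) was the widest in the shortest list.

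Nr2e1, also known as Tlx, an orphan nuclear receptor that acts as a repressor in neural and retinal progenitors, lies on the minus strand at chr10:42561963-42583590. Its start was covered over all 2001 bp within 1 kb by both marks in both genotypes. H3K27ac covered 15746 bp of the window in control and 13550 bp in cKO, and H3K27me3 covered 23681 and 23647 bp. The widest H3K27me3 peak was 8795 bp in control and 16144 bp in cKO, at chr10:42577499-42593642 in cKO. The wider cKO peak met 5 control peaks that were called separately. Over the window, 1816 bp lay under H3K27me3 in control alone and 1782 bp in cKO alone, and in the gene body it covered 8154 bp in control and 6905 bp in cKO. ATAC covered 1413 and 8484 bp in control and 6947 and 2280 bp in cKO, and the region widest in the shortest list lay inside the gene at chr10:42579593-42580740.

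Around all annotated starts, H3K27me3 peaks lay within 1 kb at 24.6% of 21045 starts in control and 24.4% in cKO, and both marks at 15.8% and 15.6%. Of the 7 annotated starts of 5 members, 4 had both marks in control and 5 in cKO, the added one being the second start of Pax6. The starts of Six3 and Six6 had H3K27ac alone. Rax, not among the 7 starts, had both marks at 1 end. Six3 and Six6 are also the members with more than 1 CCAAT in the stretches printed above, which is an observation on 5 genes with no test. CCAAT was 1 of several short motifs searched, and 35.6% of all promoters held it.

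Bases under both marks at once were a larger part of the H3K27me3 bases in 5 of the 6 windows than in the lists as a whole. The share of all gene windows above that whole-list value is not given. Over the genome 4.44% of H3K27me3 bases in control and 4.21% in cKO also lay under H3K27ac. In the Pax6 window this share was 97.9% of 10773 bp in control and 94.5% of 14740 bp in cKO, and in the Rax window 100% in both. At Lhx2 it was 33.6% in control and 29.0% in cKO, and at Nr2e1 61.8% and 55.4%. At Six6 it was 71.7% of 721 bp in control and 100% of 321 bp in cKO, and at Six3 0% in control and 1.83% in cKO. Seen from the other mark, 7.01% of all H3K27ac bases in control and 6.89% in cKO lay under H3K27me3. This share was 93.0% and 96.7% at Nr2e1, 41.5% and 41.3% at Lhx2, and 27.5% and 38.2% at Pax6. At Rax it was 7.01% in control, the genome-wide value, and 12.1% in cKO. At Six6 it was 3.40% and 2.20%, and at Six3 0% and 0.79%, below the lists as a whole. All gene windows were also ranked by bases under both marks. In control and cKO, Pax6 stood at percentiles 99.90 and 99.96, Nr2e1 at 99.96 and 99.95, and Lhx2 at 99.66 and 99.59. Rax stood at 93.0 and 97.2, Six6 at 74.8 and 70.7, and Six3 at 30.1 and 67.4. In bulk tissue, both marks on the same cells and each mark on different cells cannot be told apart.

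**Figure D3:**
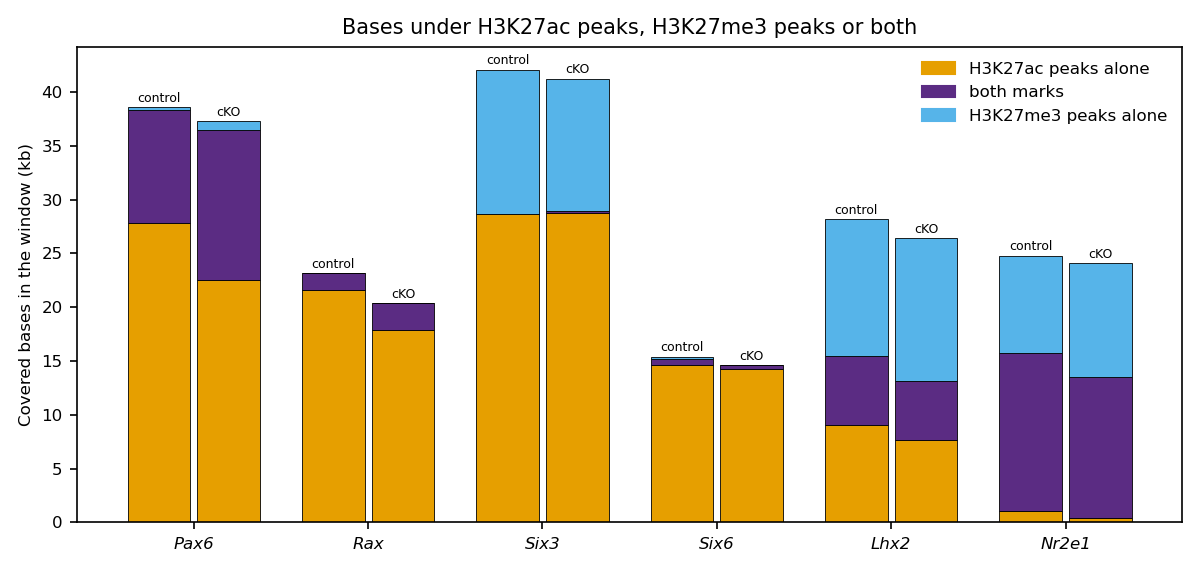
Stacked bars of the window of each gene in control and cKO, in kb of bases under H3K27ac peaks alone (orange), under both marks (purple) and under H3K27me3 peaks alone (blue), 1 library per mark and genotype. Both marks share 10543 bp at Pax6 in control and 13924 bp in cKO, and at Six3 0 and 229 bp.

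Across the 4 ATAC libraries the members followed list length. From lowest to highest, covered bases ran in the order control replicate 1, cKO replicate 2, cKO replicate 1, control replicate 2 in 6 of 6 windows and in 75.3% of all gene windows. In 0 of 6 members did both cKO values lie above or below both control values, against 0.162% of all windows above and 0.0509% below. The differences of mean log2 covered bases, cKO minus control, ran from 0.080 at Six6 to 0.31 at Rax. Each of the 6 gave p = 1.0 in the two-sided exact permutation test, in which 2 against 2 libraries cannot go below 0.333. In bases per Mb of each list, the highest library exceeded the lowest by 1.16-fold at Pax6 and Rax, by 1.22-fold at Nr2e1, by 1.52-fold at Six6, by 1.57-fold at Lhx2 and by 1.60-fold at Six3, and the genotypes overlapped in all 6 windows. On the same scale the gene body of Rax did not overlap, at 30.1 and 22.2 bases per Mb in control and 19.9 and 20.3 in cKO. Ranked among all genes, the Six6 window did not either, at percentiles 74.5 and 67.7 in control and 65.4 and 66.3 in cKO. Both gave the smallest possible exact p, 0.333, as any 2 against 2 libraries without overlap do. The share of all genes without overlap on these 2 scales is not given, so no difference is read from them. Without control replicate 1 the remaining control value was above both cKO values in 6 of 6 members, and without control replicate 2 it was below both in 6 of 6.

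**Figure D4:**
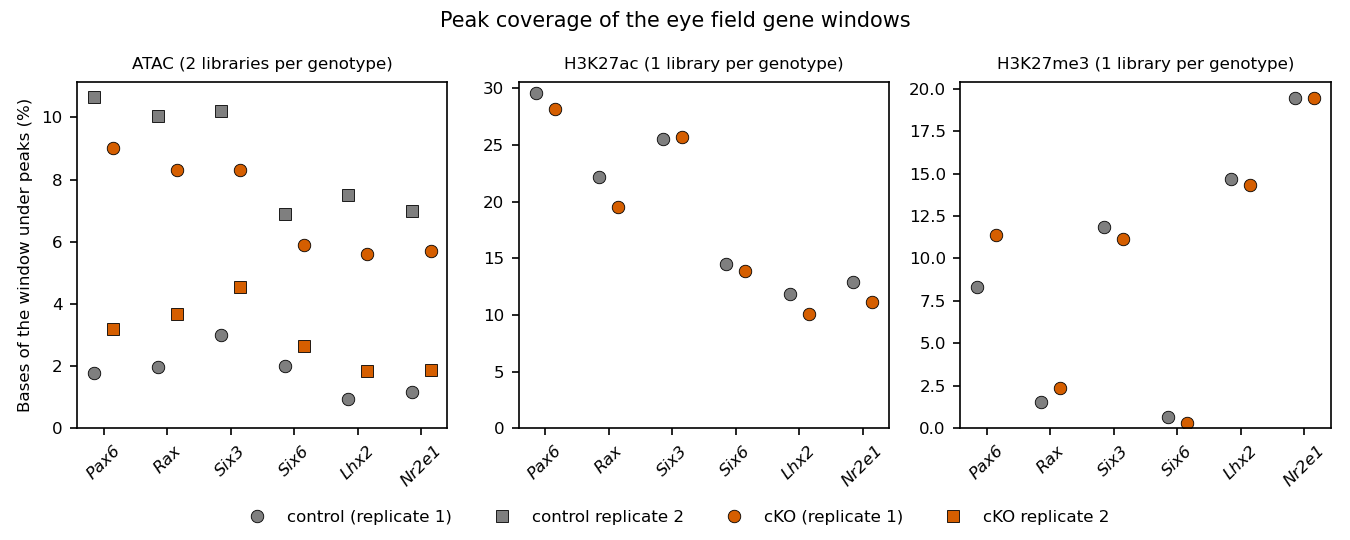
Percent of each window under peaks, 1 point per library (grey control, orange cKO, circles replicate 1 or the single library, squares replicate 2), for ATAC, H3K27ac and H3K27me3. In the ATAC panel the cKO points lie between the control points at each gene, and Pax6 has the largest H3K27ac share, 29.6% in control and 28.2% in cKO.

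The 6 windows held 111 open regions after peaks of the 4 ATAC lists that overlapped by at least 1 bp were merged. Of these, 39 (35.1%) were called in all 4 lists, against 28.2% of 118718 regions genome-wide, and 33 (29.7%) stood in the 2 longest lists alone, those of control replicate 2 and cKO replicate 1, against 28.0%. No region was called in both cKO lists and neither control list (0 of 111, background 0.274%), nor in both control lists and neither cKO list (0 of 111, background 0.123%). H3K27ac in both genotypes lay over 71 of the 111 (64.0%), against 32.4% of all regions, and both marks over 20 (18.0%), against 4.17%. Among regions called in all 4 lists, 34 of 39 in the windows (87.2%) and 67.3% genome-wide carried H3K27ac. Nr2e1 had the most regions under both marks, 10 of 15, and Six3 had 0 of 21.

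For the histone marks a change was called where covered bases differed by at least 1.2-fold and 1 library had at least 1000 covered bases. With 1 library per genotype there is no test. H3K27ac differed by that much in 0 of 6 members, against a background of 4.51% of 16871 windows higher in cKO and 13.2% lower, and in 0 of 6 gene bodies, against 9.58% higher and 19.8% lower. At any size, 5 of 6 members were lower in cKO (69.5% of all windows were), and the members' median log2 change was -0.13 against -0.07 over all windows. The cKO list held more peaks but covered fewer bases, and scaling both lists to the same total of covered bases adds 0.10 on the log2 scale, after which 3 of 6 members were lower (42.3% of all windows), with Pax6, Six3 and Six6 higher, and the background became 9.01% higher and 6.38% lower. The largest difference was at Lhx2, 1.18-fold lower in cKO, at the 16.14th percentile of all windows.

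H3K27me3 was higher in cKO by the same rule in 2 of the 5 members with enough covered bases, Pax6 (1.37-fold, 95.79th percentile) and Rax (1.51-fold, 97.29th percentile), and lower in 0 of 5. The background was 8.46% of 14079 windows higher and 15.2% lower, or 10.7% and 12.4% after that scaling. The median over the 5 members was -0.0021 on the log2 scale and that over all windows was -0.03. In gene bodies Pax6 and Rax were again higher, and none was lower, with 4 bodies tested and a background of 10.7% of 5348 bodies higher and 15.1% lower. The Rax window held less H3K27me3 than those of Pax6, Lhx2 and Nr2e1, and in a window of 200 kb either side Rax, at 9349 bp in control and 10719 bp in cKO, no longer reached 1.2-fold. At a fold of 1.5 Rax alone was called. With only bases nearest the member's own end, Six3 turned from -0.09 to 0.34 on the log2 scale and was called as well, 3 members in all. At Six3 these bases lay at least 9.30 kb from the gene. Their peaks were 180 and 813 bp wide in control and 355, 134 and 772 bp wide in cKO. The totals were close to the minimum of 1000 bp, and no background is given for this setting.

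**Figure D5:**
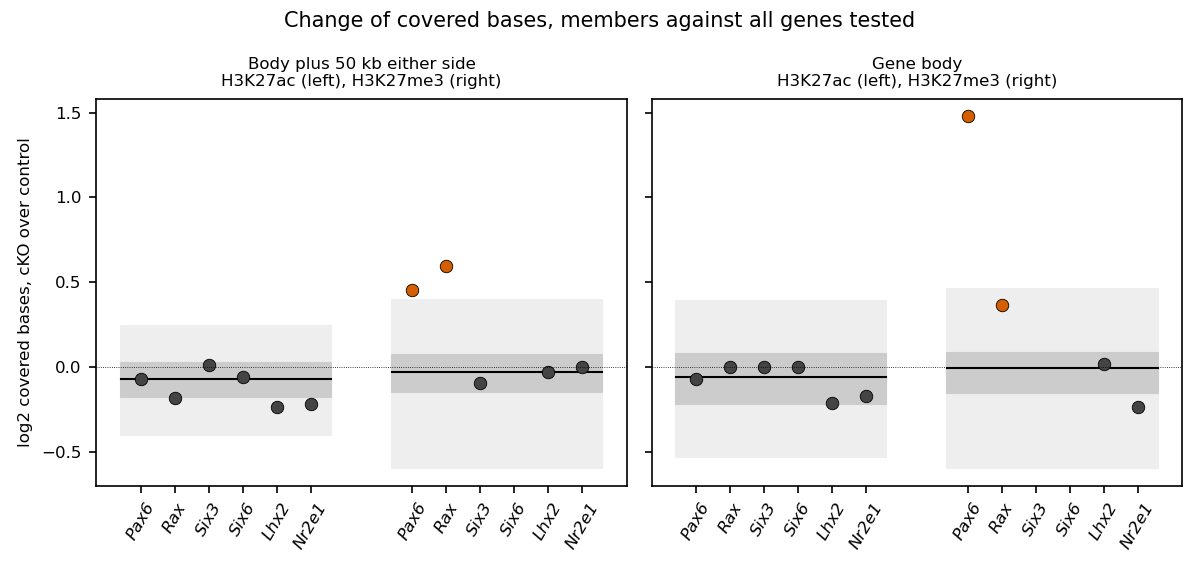
Log2 of covered bases in cKO over control for each gene with at least 1000 covered bases in 1 library, in the window and in the gene body (orange points, at least 1.2-fold), over bands of the 5th to 95th (light) and 25th to 75th (dark) percentiles of all genes tested and their median line. For H3K27me3 the points of Pax6 and Rax are orange in both panels, and for H3K27ac none of the 6 is.

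The acetylated bases at the members were shared between genotypes more than in the list as a whole. No such share is given for other gene windows or for peaks of like width, so this is not shown to be particular to the members. The bases common to control and cKO as a share of the bases in either were 0.76 at Nr2e1, 0.78 at Rax, 0.79 at Lhx2, 0.87 at Pax6, 0.89 at Six3 and 0.95 at Six6, against 0.66 genome-wide. For H3K27me3 the same share was 0.67 genome-wide, and it was 0.86 at Nr2e1, 0.79 at Six3, 0.68 at Pax6, 0.61 at Lhx2, 0.52 at Rax and 0.45 at Six6. In the 6 windows 21 of 60 control H3K27ac peaks met no cKO peak (35.0%, background 31.1%), and 11 of 61 cKO peaks met no control peak (18.0%, background 30.9%). The median width of unshared H3K27ac peaks was 174 bp in control and 214 bp in cKO, against 400 and 325 bp for all peaks of the lists. For H3K27me3 it was 195.5 and 267 bp, against 324 and 315 bp, and the unshared cKO peak at the second start of Pax6 was 1666 bp wide. The width of unshared peaks genome-wide is not given. The counts of unshared H3K27me3 peaks were 14 of 62 in control (22.6%, background 35.2%) and 13 of 52 in cKO (25%, background 30.9%), and 6 of the 13 lay in the Pax6 window.

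Genes that act with the members in the optic vesicle and its progenitors were read in windows of the same size. Of 20 such genes, 19 had enough H3K27ac, of which 0 were higher and 4 lower in cKO by 1.2-fold, beside 4.51% and 13.2% of all windows. Among them were Tbx5, a dorsal optic cup factor, from 6613 to 4372 bp, Foxd1, a temporal retina factor, from 7099 to 5739 bp, and Pax2, an optic stalk factor, from 1281 to 1059 bp. H3K27me3 was higher in 1 of 20, Hes1, a Notch target that keeps progenitors dividing, from 5136 to 6475 bp, and lower in 1, Mitf, a pigment cell factor, from 8532 to 6744 bp, beside 8.46% and 15.2% of all windows. The progenitor gene Sox2, with 21201 bp of H3K27ac in control and 19367 bp in cKO, did not reach 1.2-fold. Among 18 relatives from the members' own families, 15 had enough H3K27ac, of which 0 were higher and 4 lower, Pax2, Pax3 and Nr2f2 among them, beside the same 4.51% and 13.2%. For H3K27me3 0 of 17 reached 1.2-fold in either direction, beside 8.46% higher and 15.2% lower. Pax3 went from 1002 to 469 bp and Nr2f2 from 19551 to 15138 bp.

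Markers of other cells in the tissue were read over the gene plus 5 kb either side, where the background for H3K27ac was 6.25% of 13140 genes higher in cKO and 16.7% lower. Blood vessel markers were lower in 4 of the 4 with enough bases (Cldn5, Pecam1, Cdh5 and Kdr), with a summed H3K27ac of 29987 bp in control and 23677 bp in cKO. Of the markers of amacrine, ganglion and horizontal cells, which keep Pax6, 1 of 5 was lower (Ptf1a), with sums of 44907 and 41622 bp and Pou4f2 at 0. For Müller glia, 1 of 4 was lower, with sums of 36496 and 32653 bp. For the ciliary margin 1 of 2 was lower (Mitf), with sums of 10101 and 9351 bp and Msx1 and Wnt2b at 0. In the pigment epithelium list 1 of 3 was higher (Tyrp1, 818 bp in control and 1300 bp in cKO), with sums of 7595 and 7736 bp and Rpe65 and Tyr at 0. Lens markers did not reach 1.2-fold in 3 of 3, with sums of 7390 and 7174 bp, and microglial markers, with sums of 821 and 888 bp, had too few bases to call. Retinal identity markers, among them Otx2 and Crx, reached 1.2-fold in 0 of 5, with sums of 47709 and 44952 bp and Rcvrn at 0. For H3K27me3, 1 of 4 retinal identity markers (Nrl), 1 of 3 lens markers (Crybb1) and 1 of 7 ciliary margin markers (Mitf) were lower in cKO. None of these lists had a marker higher, and 0 of 8 amacrine, ganglion and horizontal markers were called. The background for H3K27me3 was 10.8% of 8054 genes higher and 16.1% lower. The part of these cells in the values at the members was not tested.

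By their percentile among all genes in each of the 8 lists, Lhx2 and Nr2e1 were each other's nearest gene, with a distance of 12.42 percentile points over the 8 libraries. Other genes were almost as near, Eif4e2 (12.79) and Endov (13.0) to Nr2e1 and Rnf43 (14.34) to Lhx2. The nearest to Pax6 was Ankrd33b (8.73), to Rax Pmepa1 (7.07), to Six3 Stac3 (4.975) and to Six6 Ranbp1 (10.14). These distances rest on windows of different length and on lists that share samples, and are given as descriptions.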

How the data were processed

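Peak lists of 8 libraries were deposited (4 ATAC-seq, 2 H3K27ac and 2 H3K27me3 ChIP-seq). Per the submitters' processing notes, Bowtie2, deepTools and MACS2 were used and the build was mm10. For their roles, versions and settings, narrow or broad peak calling included, the sources used here give nothing. In the deposited lists the score is 0 in every row, so peak positions alone were used, and a stricter caller threshold, planned as an alternative, was replaced by a minimum width of 300 bp. A longer list can come from a deeper library, and depth could not be recovered.

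The analysis used chromosomes 1 to 19 and X, with overlapping peaks of a list joined. Covered bases were counted with Python 3.11.15, numpy 2.4.6 and pandas 2.3.3 over each of 21631 protein-coding genes of the RefSeq annotation (GRCm38.p6) plus 50 kb either side. ATAC groups were compared by a two-sided exact permutation test written with numpy, and histone groups, with 1 library each, by covered bases alone. The script was checked on simulated windows with known coverage. Alternatives were other windows, widths, folds, minimums, overlaps and scalings, and leaving out each ATAC replicate.

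The members and gene lists were chosen with earlier results of these data known. The rule named all 6 members, and for each the ATAC region called in 4 lists that was widest in the shortest list, the regions at its starts, its widest histone peaks, up to 2 unshared peaks per mark and direction, its neighbours, and up to 4 genes per list by fold. Sox2, Otx2 and Crx, the markers named as having 0 bp, and the shared run of letters in the promoters of Six3 and Six6, were named outside that rule after values were seen. Replicate numbers were checked as pairs: the deviations of same-numbered ATAC libraries from their group means correlated at -0.274 across gene windows, and nothing in the labels ties a number to a day. Some genes of the lists are counted but not reported here by name.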

Additional observations from a re-analysis of the deposited data

How the results depend on the processing

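Peaks without counts limit every comparison, and each histone value rests on 1 library. The number of members higher in cKO for H3K27me3 went from 2 to 1 with 200 kb either side (background 4.82% of windows) and at 1.5-fold. It went to 3 with bases nearest the member's own end, where Six3 turned from -0.094 to 0.345 on few bases. With no minimum of covered bases 1 member, Six6, was lower for H3K27me3. For H3K27ac 1 of 6 members, Lhx2, was lower in cKO with peaks of at least 300 bp, against a background of 19.9% of 16631 windows. With bases nearest the member's own end 1 member, Nr2e1, was lower. No share over all genes is given for nearest bases, 1.5-fold, no minimum or left-out ATAC libraries. With peaks of at least 300 bp, 1 ATAC region was found in both cKO lists only, and unshared peaks fell to 8 for H3K27ac in control, 1 in cKO, 6 for H3K27me3 in control and 5 in cKO. Neither the number of peaks left in the windows nor a share over the whole lists is given at this width. No difference between genotypes is read from these counts. Requiring 50% overlap gave 22 unshared H3K27me3 peaks of 52 in cKO (42.3%, background 44.6%). Leaving out 1 ATAC library gave 0 to 6 members higher and 0 to 6 lower in cKO, with 0 to 15 regions in cKO only and 0 to 16 in control only. The log2 differences then ran from -0.995 to 1.58 at Pax6, -0.864 to 1.49 at Rax, -0.733 to 1.04 at Six3, -0.806 to 0.966 at Six6, -1.22 to 1.79 at Lhx2 and -1.09 to 1.49 at Nr2e1. Other ATAC differences that changed sign were Rax in the body only (-0.090), Six3 with peaks of at least 300 bp (-0.026), Six3 and Six6 with equal list lengths (-0.10 and -0.026), Six3, Six6 and Nr2e1 per Mb of the list (-0.12, -0.19 and -0.071) and, in an alternative chosen after seeing the data, Six6 without other genes' bodies (-0.0012). The cause was not tested. With the replicate block 0 members were higher and 0 lower in ATAC. Crossing the replicate numbers in the block, also added after seeing the data, gave 0 and 0. The histone libraries have no pairs.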
